A study of Mus musculus with 4 samples.

Results

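Dense clusters of Tfcp2l1 binding sites are described here: runs of neighbouring peaks that were found in both repeats of a ChIP-seq experiment on mouse embryonic stem cells. A peak of repeat 1 was taken as shared if it overlapped a peak of repeat 2 by at least 1 bp, and only autosomes were used. Shared peaks whose summits lay at most 10 kb from the next were joined, and groups of 8 or more peaks were kept. This gave 258 clusters with 2552 member peaks, out of 43258 autosomal shared peaks (5.9%). The clusters were chosen by the positions of the peaks, so their number and density are the choice itself and not a finding.

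The cells were wild-type embryonic stem cells grown in 2i with LIF: 1000 units/mL of LIF, 3 µM CHIR99021 (a GSK3 inhibitor) and 1 µM PD0325901 (a MEK inhibitor). Each of 2 repeats had 1 ChIP library, made with a custom antibody against mouse Tfcp2l1, and 1 input library of the same cells without immunoprecipitation. The 2 ChIP libraries held 19353473 and 22555373 tags after the authors' removal of duplicates. The labels do not tie each repeat to its own culture, and what differs between the pair may be purely technical. No RNA was measured with which the cell identity could be checked. Fold enrichment is the authors' value throughout: ChIP tags in a peak over those of the local background that MACS, their peak caller, estimated. Below, pairs of values are repeat 1 and then repeat 2. Where a cluster reached a pair of values, or had peaks up to them, the 2 values can belong to different peaks.

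Tfcp2l1 is a transcription factor of the CP2 family and part of the network that keeps mouse embryonic stem cells in the naive state, downstream of LIF. CP2 proteins bind DNA as dimers or tetramers, and their target sites hold a pair of short CCAG-like elements repeated in the same direction. Genes of cell identity in embryonic stem cells are often surrounded by many closely spaced binding sites of such factors, at the promoter, inside the gene and in the flanking DNA.

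Most dense clusters lay in or around genes but their summits mostly lay away from promoters. Where a member summit of both repeats did fall in the 250 bases before a start site, the sequence can be shown. There were 56 such promoter windows in RefSeq's table for GRCm38.p6 (windows of neighbouring start sites can overlap), and 6 held a direct pair on either strand: CCAG, 6 bases of any kind, and CCAG again. Of these, 4 are printed as examples of a bound promoter with the pair, chosen after their values were seen (the others, at Gm19605 and Gm32822, are described by their values below), 5′ to 3′ on the strand of the gene, with the pair in capitals (a pair on the other strand reads CTGG, 6 bases, CTGG).
Gm38618 (chr3:88531881-88532130, - strand): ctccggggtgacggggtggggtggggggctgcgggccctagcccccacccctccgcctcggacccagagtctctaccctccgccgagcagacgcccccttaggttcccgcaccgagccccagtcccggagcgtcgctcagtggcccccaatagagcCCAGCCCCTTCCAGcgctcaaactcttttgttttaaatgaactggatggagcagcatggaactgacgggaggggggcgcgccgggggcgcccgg
Sdc4 (chr2:164443189-164443438, - strand): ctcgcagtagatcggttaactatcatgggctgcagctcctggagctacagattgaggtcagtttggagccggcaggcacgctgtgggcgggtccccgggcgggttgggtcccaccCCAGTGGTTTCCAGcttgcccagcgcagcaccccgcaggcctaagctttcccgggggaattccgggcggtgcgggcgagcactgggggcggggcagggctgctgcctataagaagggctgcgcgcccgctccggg
Csrnp1 (chr9:119984444-119984693, - strand): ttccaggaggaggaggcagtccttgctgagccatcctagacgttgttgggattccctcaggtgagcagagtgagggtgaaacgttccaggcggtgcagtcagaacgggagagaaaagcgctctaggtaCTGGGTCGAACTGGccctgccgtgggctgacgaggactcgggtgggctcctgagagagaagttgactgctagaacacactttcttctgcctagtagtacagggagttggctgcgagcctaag
Klhl21 (chr4:152008641-152008890, + strand): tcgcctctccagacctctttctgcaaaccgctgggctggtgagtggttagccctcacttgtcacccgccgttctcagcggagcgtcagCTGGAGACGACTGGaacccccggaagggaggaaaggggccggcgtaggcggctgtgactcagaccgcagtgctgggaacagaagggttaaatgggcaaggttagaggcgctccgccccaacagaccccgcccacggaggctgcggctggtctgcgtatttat

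Positions in these windows are counted from 1 at the first base printed. At Gm38618, a predicted gene in the cluster of Ubqln4, Mex3a and Lamtor2, the pair began at base 157 and the summits lay at bases 125 and 122. The peak there had 195 and 227 tags and 64.25-fold and 55.7-fold enrichment. At Sdc4, which encodes the heparan sulfate proteoglycan syndecan 4, the pair began at base 116, with summits at 52 and 40 and 20.3-fold and 9.42-fold enrichment. At Klhl21, a substrate adaptor of a cullin ubiquitin ligase, the pair began at base 89, with summits at 144 and 149 and 7.74-fold and 8.55-fold enrichment. At Csrnp1, which encodes a nuclear protein, the pair began at base 129 and the summits of the repeats stood on either side of it, at bases 34 and 210, with 10.3-fold and 13.7-fold enrichment. At Gm19605, another predicted gene, the pair began at base 127 and both summits lay at base 18, with 33.4-fold and 34.3-fold enrichment. At Gm32822 it began at base 231, with summits at 133 and 44 and 10.9-fold and 7.85-fold enrichment.

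The pair was uncommon in all promoter windows. Of 31365 windows, 2.83% held the direct pair on either strand. Among the 271 windows that overlapped a member peak, 12 did (4.43%, exact 95% interval 2.31% to 7.61%), and among the 5876 windows that overlapped another shared peak, 244 did (4.15%, 3.66% to 4.69%). Windows can overlap here too and are not independent, so intervals over windows can be too narrow. A looser pair, CCNG, 6 bases and CCNG (N is any base), which includes the first, was in 36.9% (31.1% to 42.9%) of windows with a member, 41.1% (39.9% to 42.4%) of those with another shared peak and 24.9% of all. The inverted pair, CCAG, 6 bases and CTGG, stood in 2 of the 271 windows (0.738%), in 1.99% of those with another shared peak and in 1.42% of all. Median GC content was 59.2%, 60% and 52.4% in the 3 sets of windows, and its part in the shares was not tested. In the 6 windows with both summits and a direct pair, the median distance from the pair's centre to the summit of repeat 1 was 86 bp, and 2 lay within 50 bp. Most bound promoter windows therefore held none of these exact letters, which says nothing of other sequences the factor may bind.

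Groups of shared peaks became rarer with each added peak up to 12 peaks, with no jump at the limit of 8, and the few larger groups numbered 14 or fewer at each size. Of 26095 groups, 17596 were single peaks, 4674 were pairs, 153 had 7 peaks and 90 had 8. Clusters of 8 or 9 peaks made up 151 of the 258, 107 had 10 or more, and 14 had 15 or more, up to 20. The plot of group sizes shows this decline.

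**Figure D1:**
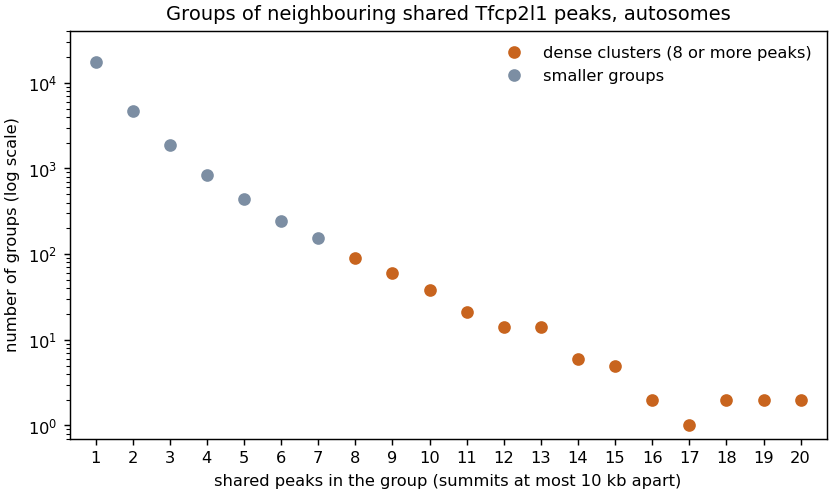
Number of groups (log scale) by the number of shared peaks in the group, for 26095 groups on autosomes. The counts fall from 17596 single peaks to 90 groups of 8 and 2 groups of 20, with no gap between the smaller groups (grey) and the 258 dense clusters (orange).

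Member peaks were a few kilobases apart. A cluster spanned a median of 36.5 kb from its first to its last peak (interquartile range 29.8 to 44.0 kb), and all spans together covered 9.91 Mb. The median distance between neighbouring summits was 3.56 kb (2.17 to 5.86 kb), and 503 of 2294 distances (21.9%) were under 2 kb. Peaks covered a median of 31.8% of the span. The shortest cluster lay at Myo10, which encodes an unconventional myosin of filopodia, with 8 peaks in 17.3 kb, all with their summits inside the gene. Its peaks covered 66.1% of the span (chromosome 15, 25621311 to 25638635). The widest lay inside Rnf220, a ubiquitin ligase gene, with 20 peaks over 116 kb and a median spacing of 6.58 kb.

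Most member summits had a close counterpart in the other list, but the lists did not always divide a stretch of signal into the same number of peaks. Summits of the repeats lay a median of 29 bp apart in members, and 85.2% were within 100 bp of each other, against 28 bp and 88.5% in the other shared peaks. A peak of repeat 2 was shared with another member by 177 members, which left 2462 distinct peaks of repeat 2, and 24 clusters had fewer than 8 of these. Within the spans lay 203 more peaks of repeat 1 and 114 of repeat 2 without a match (7.37% and 4.43% of the peaks there, against 23.6% and 15.1% over the autosomes). The spans were chosen for shared peaks, so these lower shares follow in part from the choice. Without the demand for a match, the peaks of repeat 1 alone formed 529 clusters and those of repeat 2 alone 422. These overlapped 258 and 244 of the 258. The first overlap was fixed in advance, since members are peaks of repeat 1 and added peaks can only enlarge their groups.

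Irf2bpl and Rnf220 had the clusters with the most peaks, 20 each, and the one at Irf2bpl had more tags. It flanked Irf2bpl, which encodes a nuclear protein of the Irf2bp family, on chromosome 12 (86859255 to 86933340). None of its peaks had a summit inside the gene. Tags per peak ran from 28 to 614 in repeat 1 and from 31 to 551 in repeat 2. The strongest peak (86903619 to 86904817) lay 19.3 kb from the nearer gene end, with 143-fold and 76.2-fold enrichment and 461 and 446 tags. Other strong peaks of this cluster had 120.3-fold and 51.05-fold (86871364 to 86873005), 97.6-fold and 48.6-fold (86930960 to 86933340), and 96.2-fold and 64.85-fold enrichment (86867157 to 86868544). Between them stood weak peaks such as the one at 86876889 to 86877905, with 6.20-fold and 7.81-fold. Peaks that were strong in repeat 1 were strong in repeat 2 as well.

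Esrrb, the gene of an orphan nuclear receptor that sustains naive pluripotency, held a cluster of 16 peaks over 62.9 kb (chromosome 12, 86462860 to 86525752), 14 of them inside the gene. The strongest, at 86503204 to 86505341, had 569 and 536 tags and 168-fold and 127-fold enrichment. Its neighbour at 86501322 to 86502787 had 85.8-fold and 64.0-fold, and the first peak, at 86462860 to 86465297, had 75.4-fold and 56.1-fold. The weakest of repeat 1, at 86483290 to 86484178, had 31 and 35 tags and 6.97-fold and 6.76-fold. The others above 45-fold in repeat 1 had 62.9-fold and 36.4-fold, 52.7-fold and 27.1-fold, and 46.2-fold and 26.1-fold. These 6 peaks were also the 6 with the most enrichment in repeat 2. No member of this cluster stood between 22.0-fold and 46.2-fold in repeat 1.

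Next in size were the clusters at Rnf220, at Slc29a1, Hsp90ab1 and Mymx, and at Ahdc1 and Wasf2. The Rnf220 cluster (chromosome 4, 117282787 to 117399268) had its strongest peak of repeat 1 at 142-fold and 75-fold, 71.7 kb from the nearer gene end. All 20 of its peaks were inside the gene, and from the peaks of repeat 2 alone the largest group there had 11. A cluster of 19 peaks on chromosome 17 (45555384 to 45631129) covered Slc29a1, a nucleoside transporter gene, Hsp90ab1, which encodes the chaperone Hsp90 beta, and Mymx, which encodes a muscle fusion protein. Its strongest peak, with 606 and 600 tags and 124-fold and 100.3-fold enrichment, lay 0.087 kb from an end of Mymx. Another of 19 peaks (chromosome 4, 133069938 to 133145316) overlapped Ahdc1 and the actin regulator gene Wasf2, and its first peak was also its strongest (119.9-fold and 63.2-fold).

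The cluster at Sparc, Atox1 and G3bp1 had a lower strongest peak than the clusters described above. Sparc encodes a secreted matrix glycoprotein, Atox1 a copper chaperone and G3bp1 a core protein of stress granules. Its 18 peaks over 73.2 kb of chromosome 11 (55404367 to 55477559) had medians of 17.4-fold and 17.9-fold. They reached 71.5-fold and 53.9-fold, at different peaks. The strongest peak of a cluster had medians of 72.9-fold and 49.9-fold over all 258 clusters. Of the 18 peaks, 5 had at least 30-fold enrichment in both repeats. At Zmynd8, which encodes a reader of histone marks, the 18 peaks (chromosome 2, 165843061 to 165915115) had lower medians of 10.9-fold and 9.36-fold and maxima of 64-fold and 44.2-fold. From the peaks of repeat 2 alone, the largest group at Zmynd8 had 28.

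Further clusters of 15 to 17 peaks lay at Sufu, Trim8 and Arl3, at Macf1, at Rps6ka1, at Ptges and Prrx2, and in a span without a protein-coding gene. Sufu encodes an inhibitor of Hedgehog signalling and Arl3 a GTPase of cilia. Their cluster of 17 peaks (chromosome 19, 46470621 to 46531200) reached 133-fold and 80-fold. Macf1 encodes a linker of actin and microtubules, and all 16 peaks were inside it (chromosome 4, 123616811 to 123670577, up to 123-fold and 86.3-fold). Rps6ka1 encodes a kinase activated by ERK, and its 15 peaks reached 98.6-fold and 64.4-fold. At Ptges, a prostaglandin E synthase gene, and the homeobox gene Prrx2, the 15 peaks reached 121-fold and 73-fold, at different peaks. The gene-free cluster on chromosome 17 (10324857 to 10391378) lay 1.45 kb from the predicted gene Gm46608. Also near it was Qk, which encodes an RNA-binding protein, at 5.50 kb (Qk was named after its place was seen). Its 15 peaks reached 129.5-fold and 64.4-fold.

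**Figure D2:**
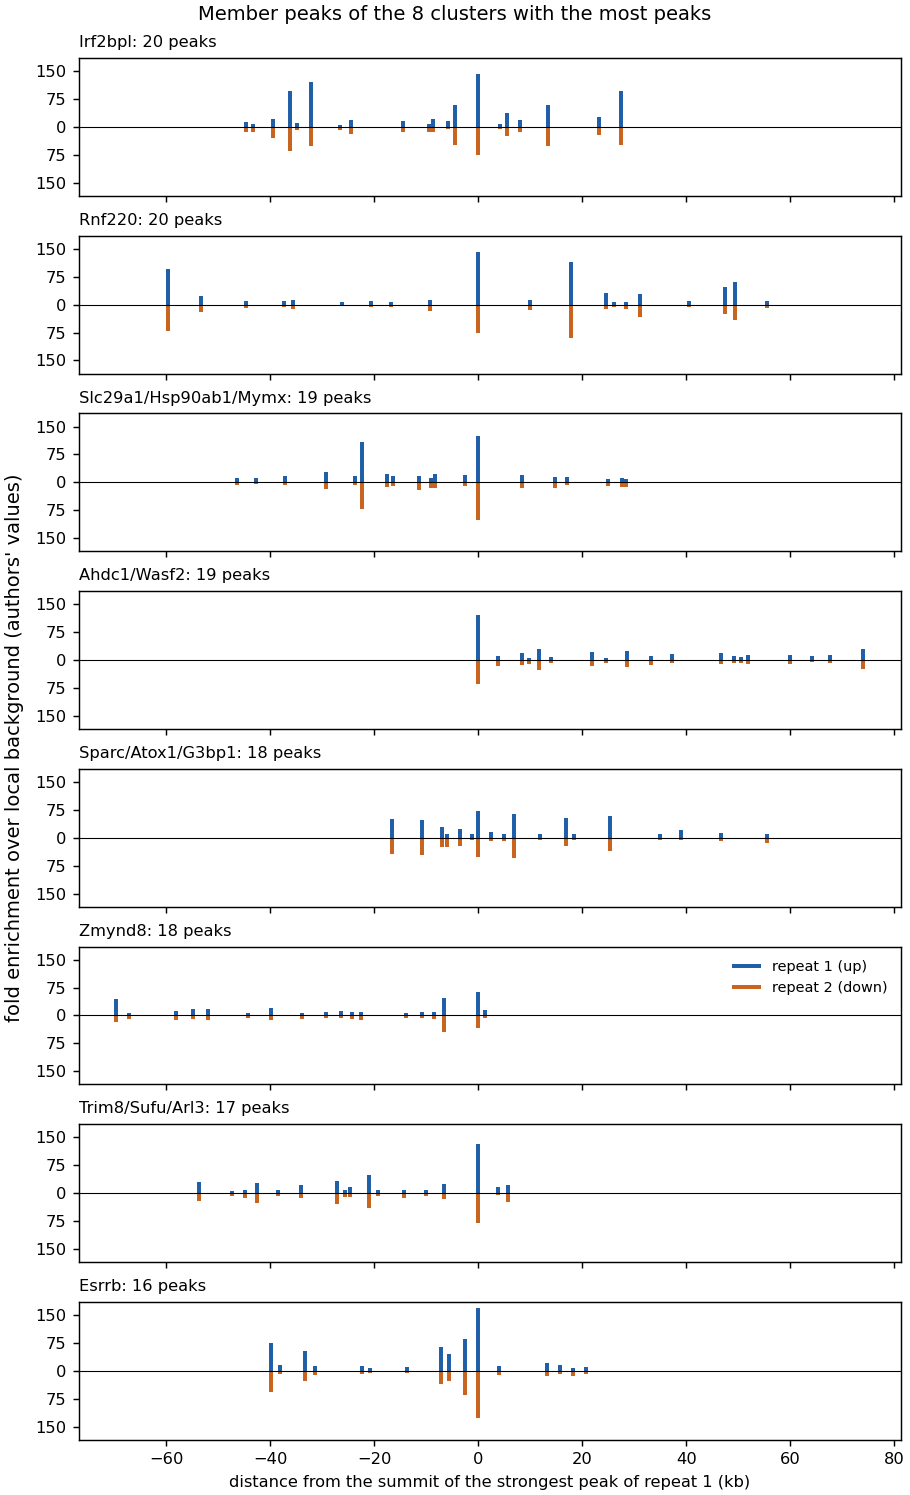
Member peaks of the 8 clusters with the most peaks, placed by the distance of their summit from that of the strongest peak of repeat 1 (kb). Bars up give the fold enrichment in repeat 1 and bars down that in repeat 2. Strong peaks, such as the 168-fold and 127-fold peak of Esrrb, stand among many of lower enrichment. The strongest of repeat 1 is not always that of repeat 2, as at Rnf220 (75-fold against 89.5-fold).

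Clusters mixed strong and weak sites. The strongest peak of a cluster had median enrichments of 72.9-fold and 49.9-fold, taking the strongest of each list. The median peak of a cluster had 16.9-fold and 13.03-fold, and the weakest 7.15-fold and 5.97-fold. In repeat 1 the strongest peak was a median of 3.95 times the cluster's median (from 1.22 to 15.5 times). The peak with the most tags held a median of 28.2% and 27.9% of the cluster's tags. In 187 of 258 clusters (72.5%) the strongest peak of repeat 1 was also that of repeat 2, although both lists come from the same rule. A peak of at least 30-fold in both repeats was present in 213 clusters, at least 3 such peaks in 57, and none in 45. The upper quartile of all shared peaks was 27.6-fold and 20.4-fold, and each cluster had 8 or more peaks. The share of all shared peaks at 30-fold in both repeats was not counted. Whether 213 is many or few therefore cannot be told.

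**Figure D3:**
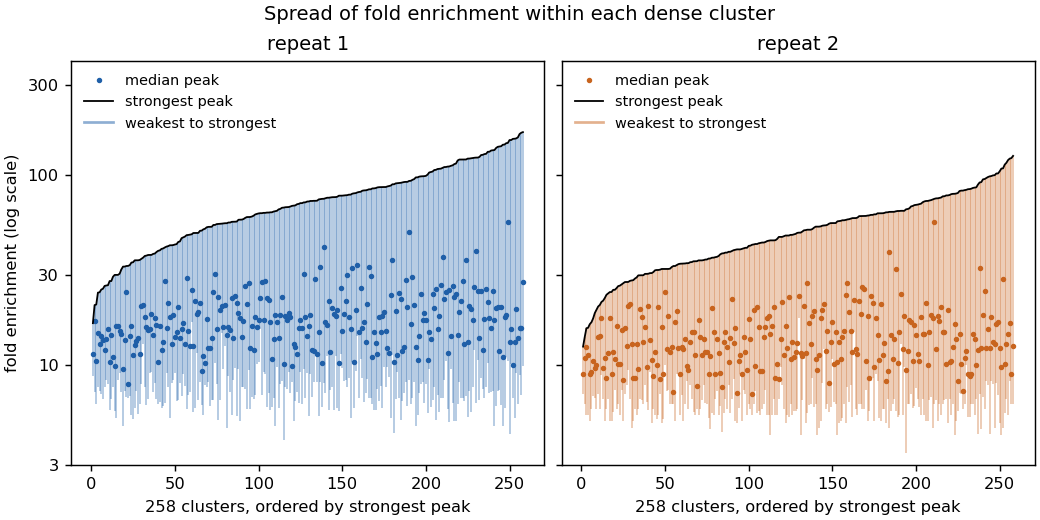
Vertical axes give fold enrichment (log scale) and horizontal axes the 258 clusters in order of their strongest peak, with repeat 1 on the left and repeat 2 on the right. Lines run from the weakest to the strongest member, and points mark the median. The strongest peaks range from 16.7-fold to 169-fold in repeat 1 and from 12.6-fold to 127-fold in repeat 2.

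The lowest median enrichment of a cluster in repeat 1 was that of 8 peaks on chromosome 1 (182081866 to 182103289), 21.4 kb from Srp9, which encodes a subunit of the signal recognition particle. There it was 8.02-fold and 8.37-fold, with a strongest peak of 33.4-fold and 27.1-fold.

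Median enrichment was compared among members by place and neighbourhood, as a description. The 252 members within 1 kb of an annotated start site had medians of 19.1-fold and 14.4-fold, against 16.4-fold and 12.6-fold for the 2252 farther away. Outside the clusters, shared peaks at start sites had 17.4-fold and 11.8-fold. Members inside protein-coding genes had 16.8-fold and 12.7-fold and those outside 16.5-fold and 13.1-fold. With the nearest neighbour under 2 kb away the medians were 16.1-fold and 12.95-fold (904 peaks). With it 5 kb or more away they were 16.3-fold and 12.6-fold (431 peaks). In clusters of 15 or more peaks the medians were 16.9-fold and 12.6-fold, and in clusters of 8 or 9 peaks 16.5-fold and 12.95-fold. All members together had an interquartile range of 10.3-fold to 30.8-fold in the first repeat and of 8.24-fold to 23.5-fold in the second.

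Compared with the rest of the shared peaks, members had slightly more signal. Their median fold enrichment was 16.7 and 12.95, against 15.3 and 11.8 for the 40706 other shared peaks and 14.7 and 11.1 for single peaks. Median tags were 73 and 69.5, against 57 and 56 for the others, and median peak length 1081 bp in both repeats against 975 and 989 bp. Groups of exactly 7 were close to the members, with median tags of 68 and 67 and lengths of 1071 and 1075 bp. Of the members, 273 (10.7%) were in the strongest 10% of all shared peaks in both repeats (at least 51.2-fold and 36.1-fold). Of the others, 2974 (7.31%) were. That share was 5.95% of single peaks, 8.34% in groups of 2 to 7 and 11.1% in groups of exactly 7, so it was not particular to the clusters. Among members, 18.2% were under 10-fold in both repeats, and 20.8% of the others. Spearman's rho between the repeats' fold enrichments was 0.816 over the members and 0.798 over the others (across peaks, which are not replicates). These values come from the same peak calls as the rule and are given as a description, without a test.

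**Figure D4:**
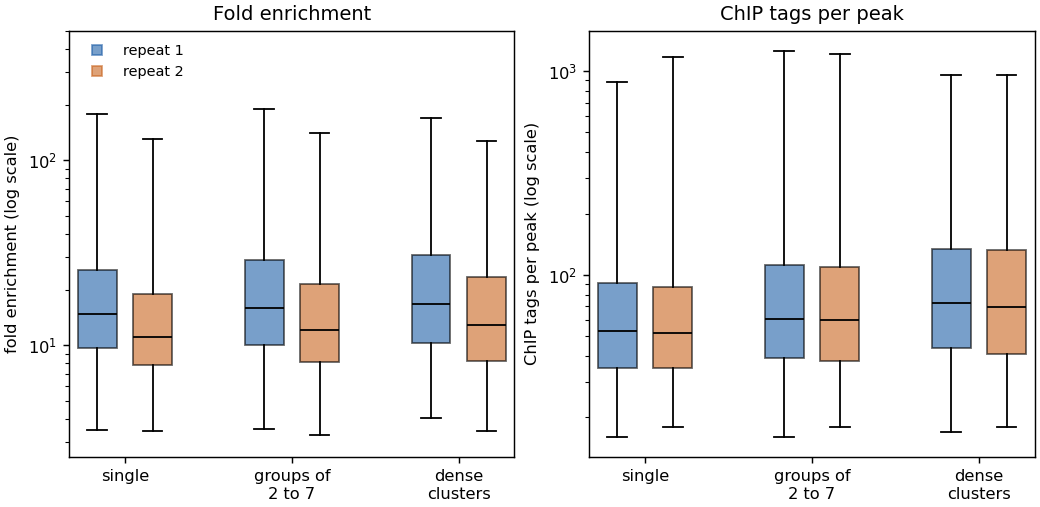
Fold enrichment (left) and ChIP tags per peak (right), both on log scales, for single shared peaks, groups of 2 to 7 and dense clusters. Boxes give the quartiles and median, whiskers the lowest and highest peak, and colours the repeat. The boxes of the 3 sets overlap, with median fold enrichments of 14.7, 15.9 and 16.7 in repeat 1 and 11.1, 12.2 and 12.95 in repeat 2.

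Values changed little across the limit of 8 peaks. The 720 peaks in groups of exactly 8 had medians of 16.4-fold and 12.7-fold, and the 1071 peaks in groups of exactly 7 had 16.9-fold and 12.95-fold. In genome order, the first groups just inside lay nearest Catip, Ptma, Chrng, Lemd1 and Nav1, with cluster medians from 13.04-fold to 25.9-fold in repeat 1. The first just outside lay nearest Paqr8, Dst (a pair of groups), Vwa3b and Optc, with 13.04-fold to 52.7-fold.

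At least 1 protein-coding gene, counted from start to end, was overlapped by 228 of the 258 spans. The table used gives no exons, so exons and introns were not told apart. A lone gene was overlapped by 132 spans, 39 spans overlapped 3 or more genes, and 42 lay wholly inside 1 gene. Of the member summits, 1513 (59.3%) were inside a gene, against 55.6% of other shared summits. Within 10 kb of a gene end lay 51.1% of members against 44.5%, but within 1 kb only 10.6% against 14.2%. Beyond 100 kb lay 56 members (2.19%) against 10.3%, and 5.99% of peaks in groups of 2 to 7. Smaller groups were closer to the members than single peaks were. Inside a gene lay 57.6% of peaks in groups of 2 to 7, 58.4% in groups of exactly 7 and 53.1% of single peaks. Within 10 kb of a gene end the shares were 49.99%, 47.4% and 37.4%. Within 1 kb they were 14.03%, 11.4% and 14.5%. Lying in or near genes was therefore not particular to the clusters. Within 1 kb of a start site the share of members was also lower, at 10.1% against 13.4% of other shared peaks. In groups of 2 to 7 it was 13.1%, and in groups of exactly 7 it was 10.3%. Of 253 clusters on chromosomes with annotated start sites, 147 held at least 1 such peak, and in 31 it was the strongest. No test was made of these differences, and members of 1 cluster share their surroundings.

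Of 20661 autosomal protein-coding genes, 523 (2.53%) lay within 10 kb of a cluster span. Of the same genes, 399 (1.93%) overlapped a span and 993 (4.81%) lay within 50 kb. Gene length enters such counts: the genes at clusters had a median length of 19.0 kb and the other genes 17.4 kb. Counts for 19 lists of genes are set beside this share below. Peak counts given with a list gene are those of the whole cluster, and some peaks can lie over 10 kb from the gene. The lists were chosen with earlier results of these data known, so their counts are descriptions without a test. They held 249 distinct genes on autosomes, of which 26 (10.4%) were at a cluster.

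Naive pluripotency genes at clusters were Esrrb, Tbx3, Klf2 and Fgf4, 4 of 21 list members (19.0%, exact 95% interval 5.45% to 41.9%). Tbx3 encodes a T-box factor of the naive network, and 13 peaks over 53.1 kb lay at it (chromosome 5, 119668447 to 119721519). The strongest of repeat 1 was inside Tbx3 (460 and 339 tags, 93.7-fold and 40.03-fold), and its peak of repeat 2 also matched the neighbour (8.70-fold in repeat 1). The strongest of repeat 2 was 28.3 kb away (492 and 514 tags, 86.7-fold and 78.5-fold), and another lay at 22.1 kb (315 and 275 tags, 76.8-fold and 51.8-fold). So the strong sites of this cluster lay both in Tbx3 and in the DNA beside it.

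Klf2, which encodes a Krüppel-like factor of the naive network, had 9 peaks over 32.1 kb (chromosome 8, 72304866 to 72336982). A lone peak dominated: 72333318 to 72335376 had 608 and 598 tags and 154-fold and 109-fold enrichment. It lay 6.56 kb from the neighbouring gene Eps15l1 and over 10 kb from Klf2. Only 6 of the 9 peaks lay within 10 kb of Klf2. The other peaks of the Klf2 cluster reached at most 15.8-fold in repeat 1 and 19.6-fold in repeat 2.

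Fgf4, whose product is the main FGF of these cells and drives ERK signalling, had 9 peaks over 24.5 kb (chromosome 7, 144851461 to 144875947). None had its summit inside Fgf4. Peaks lay on both sides: 0.168 kb from an end (17.4-fold and 12.6-fold) and 0.167 kb from the other (17.2-fold and 7.69-fold). The strongest were at 144854528 to 144856134 (268 and 180 tags, 63.1-fold and 39.2-fold) and 144857613 to 144859561 (417 and 319 tags, 56.2-fold and 37.9-fold). The Fgf4 cluster thus had 2 strong peaks next to each other and none above 31-fold elsewhere.

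Klf4 and Prdm14 had clusters in the DNA beside them, outside the 10 kb window. Klf4 encodes another Krüppel-like factor, and 8 peaks lay 45.4 kb from it (chromosome 4, 55463624 to 55481761), the strongest at 78.5-fold and 58.1-fold. Prdm14 encodes a repressor that protects the naive state. A cluster of 9 peaks lay 17.4 kb from it (chromosome 1, 13052004 to 13096053), with a peak of 660 and 726 tags and 154-fold and 123-fold enrichment. Pim1, a kinase gene induced by Stat3, had 12 peaks at 20.998 kb, up to 74.8-fold and 36.5-fold.

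General pluripotency had 2 of 11 members at clusters, Trim71 and Sall1. Trim71 encodes an RNA-binding ubiquitin ligase of early development, and its cluster had 15 peaks over 44.4 kb (chromosome 9, 114525011 to 114569399), 14 of them inside the gene and the strongest at 55.7-fold and 35.4-fold. The 11 peaks beside Sall1, a zinc finger factor gene, were even in strength. They had medians of 17.1-fold and 14.3-fold and a strongest peak of 20.8-fold and 20.8-fold. Only 1 of them lay within 10 kb of Sall1. Of the LIF and Stat3 list, 1 of 15 genes was at a cluster: Pim3, another kinase gene, with 9 peaks up to 53.6-fold and 29.8-fold.

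FGF and ERK feedback had 4 of 17 genes at clusters (23.5%, 6.81% to 49.9%): Fgf4, Fgfr1, Spred2 and Etv5. Fgfr1 encodes an FGF receptor, and the first of its 10 peaks was the strongest (135 and 204 tags, 56.5-fold and 48.3-fold), with a peak of repeat 2 that the next member shared. Spred2 encodes an inhibitor of the Ras and ERK pathway, and its 8 peaks were all inside the gene, up to 121-fold and 61.1-fold. Etv5, a transcription factor gene induced by ERK, had 8 peaks inside it, of which the strongest had 590 and 392 tags and 156-fold and 84.8-fold. The median of the Etv5 cluster was 10.1-fold and 8.76-fold. Of BMP and Nodal genes, 2 of 17 were at clusters, both encoding inhibitory Smads: Smad7 with 10 peaks (up to 121-fold and 95.4-fold) and Smad6 with 8 (up to 86.8-fold and 49.8-fold).

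Among regulators of chromatin and DNA methylation, 3 of 15 were at clusters (20%, 4.33% to 48.1%): Tet1, Dnmt1 and Setdb1. Tet1, a gene of DNA demethylation, had 11 peaks over 25.8 kb (chromosome 10, 62882462 to 62908263), 3 inside it. The strongest peak lay 8.26 kb outside Tet1 (625 and 638 tags, 159-fold and 114-fold). Another lay beyond it, 14.005 kb from Slc25a16 (422 and 305 tags, 93.7-fold and 61.7-fold). Dnmt1, the maintenance methyltransferase gene, was beside a cluster at the receptor gene S1pr2 (8 peaks, up to 57.0-fold and 34.4-fold). Setdb1, a histone methyltransferase gene, was beside a cluster of 12 peaks at Anxa9, Mindy1 and Prune1 (up to 75.8-fold and 51.8-fold). Only 2 member peaks lay within 10 kb of Dnmt1, and 2 within 10 kb of Setdb1.

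Cell cycle genes at clusters were Ccnd3 and Cdkn1a, 2 of 17. Ccnd3 encodes a G1 cyclin, and the 11 peaks at it and Taf8 had medians of 24.6-fold and 24.7-fold and reached 136-fold and 95.8-fold. Cdkn1a encodes the inhibitor p21, and the 14 peaks of its cluster over 47.5 kb reached 42.5-fold and 32.2-fold. Only 4 of these lay within 10 kb of Cdkn1a.

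Epithelial genes had 4 of 16 members at clusters (25%, 7.27% to 52.4%): Cdh1, Cldn4, St14 and Rab25. Cdh1 encodes E-cadherin, and 10 of its 11 peaks were inside the gene, with the strongest of each repeat at 41.1-fold and 41.1-fold. At the claudin gene Cldn4 and its neighbour Mettl27, 9 peaks included 1 with 679 and 609 tags and 157-fold and 117-fold. The membrane protease gene St14 had 8 peaks, up to 101-fold and 60-fold. Rab25, a gene of membrane traffic, was at the cluster of Ubqln4, Mex3a and Lamtor2 (12 peaks, up to 73.5-fold and 55.7-fold). The keratin genes Krt8 and Krt18, which were 2 of 12 members of the trophoblast list, shared 1 cluster of 8 peaks (up to 105-fold and 77.7-fold).

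Kidney collecting duct genes at clusters were Elf3 (9 peaks, up to 109-fold and 69.8-fold), an epithelial transcription factor gene, and Slc4a1, an anion exchanger gene beside the Ubtf cluster, 2 of 13. Only 1 member peak lay within 10 kb of Slc4a1. Of housekeeping genes, Gapdh was at a cluster, 1 of 10. No member of 8 lists was at a cluster: Wnt and beta-catenin (0 of 17), formative and primed epiblast (0 of 14), endoderm (0 of 14), mesoderm (0 of 14), neural progenitor (0 of 13), CP2 and Grainyhead (0 of 6), differentiated cell markers (0 of 20) and genes of the early cleavage embryo (0 of 9). At these sizes a 0 has an exact upper 95% bound between 16.8% (differentiated markers) and 45.9% (CP2 family), above the 2.53% of all genes. Such a 0 does not mean few peaks, since peaks in groups under 8 do not count. Shared peaks within 10 kb numbered 20 at Tcf7l1, 12 at Tcf7l2 and 11 at Grhl3, and went down to 0 at T. Fold limits matter here: with at least 10-fold enrichment required in both repeats, 25 clusters were left and 0 of the naive genes were at one, and with joining at 20 kb there were 864 clusters and 11 naive genes.

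**Figure D5:**
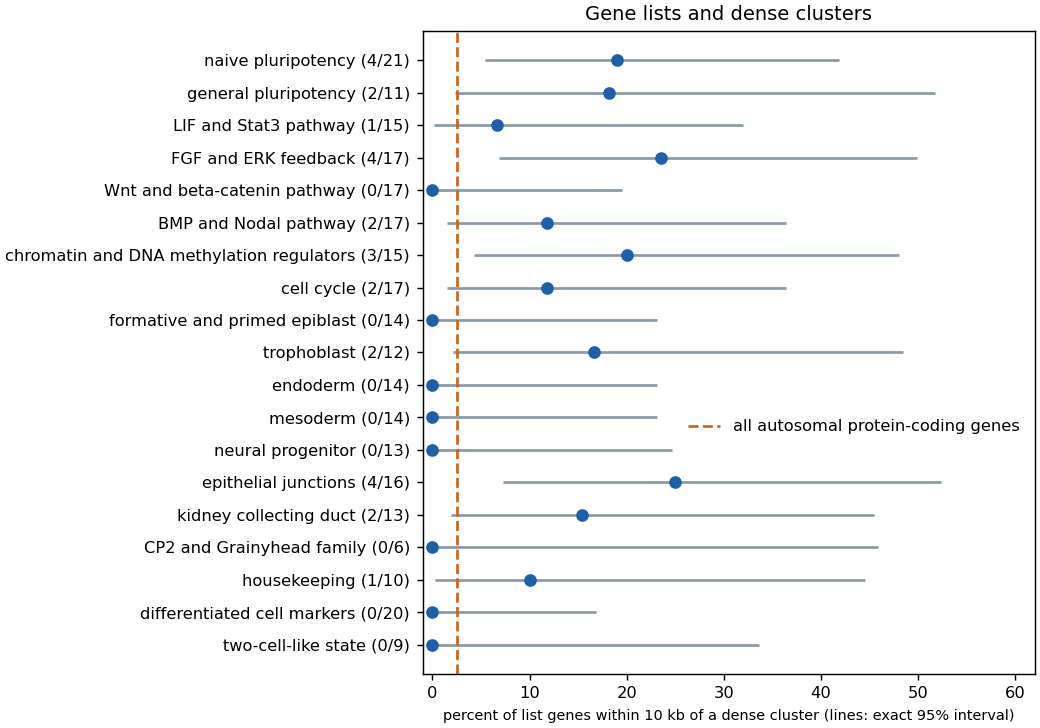
Percent of each list's autosomal genes that lay within 10 kb of a dense cluster (points), with exact 95% intervals (lines) and the 2.53% of all autosomal protein-coding genes (dashed). Counts stand beside the list names. The highest points are the epithelial (25%) and the FGF and ERK (23.5%) lists, and most intervals are wide.

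The strongest single members were at Esrrb, Ubald2, Prdm14, Tet1, Mettl27, Eps15l1, Sp2, Actn1, Pard6b and Fyn, by nearest gene and by mean rank of fold enrichment over both lists. The one 6.86 kb from Ubald2 had 169-fold and 123-fold. Sp2 encodes a zinc finger factor of the Sp family, and its peak had 145-fold and 105-fold. Actn1 encodes an actin crosslinker (142-fold and 102-fold), Pard6b a polarity protein (148-fold and 96.9-fold) and Fyn a Src-family kinase (145-fold and 92.2-fold). These 10 were chosen by their enrichment, so their values are a description.

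MicroRNA genes, 25 in all, lay in 18 spans. Their share of all microRNA genes was not counted, so whether this is many or few cannot be told. The 14 peaks at Nrf1 (chromosome 6, 30148602 to 30197488) spanned Mir182, Mir96 and Mir183, a trio known from sensory and epithelial cells. Their mature 5p sequences from RefSeq are printed to identify them, with the seed (bases 2 to 8) in capitals.
mmu-miR-182-5p: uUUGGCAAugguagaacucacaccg
mmu-miR-96-5p: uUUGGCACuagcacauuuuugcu
mmu-miR-183-5p: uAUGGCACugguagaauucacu
The seeds differed from each other. The nearest member summits lay 1.56 kb from Mir182 and 1.90 kb from Mir96 (the same peak, 29.96-fold and 19.3-fold) and 1.73 kb from Mir183 (12.7-fold and 6.58-fold). In the cluster of Hoxa9, Hoxa10 and Hoxa11, homeobox genes of the body axis, the peak of 51.1-fold and 22-fold had its summit 0.075 kb from Mir196b.

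Clusters were uneven along the genome. Chromosome 11 had 34 and chromosome 4 had 27, while chromosome 13 had 3. Members were 9.73% of the shared peaks of chromosome 11 and 9.06% of those of chromosome 4, and 1.55% of those of chromosome 13. On chromosome X, left out of the rule, the 575 shared peaks gave no group of 8, and the largest had 6. Some clusters were neighbours: 9 pairs were at most 50 kb apart and 18 at most 100 kb. On chromosome 2, between 30676731 and 30943457, 3 clusters with 38 peaks followed each other over 267 kb, the last of them at Ptges and Prrx2. Thus a wider joining distance would merge some of the clusters described here.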

How the data were processed

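Peaks came from 2 lists, 1 per repeat. Per the file headers, MACS 1.4.1 called them at a p-value of 1e-05 for the ChIP library against the input of the same repeat, with tags of 35 bp and at most 2 duplicates per position. CASAVA 1.8.2 stands in the submitters' processing notes. Which aligner was used is not given in the sources used. The authors' tag count per peak, their score (minus 10 log10 of the p-value) and their ratio of ChIP to local background (fold enrichment) were used as deposited, per the file headers, and the deposited FDR in percent was left aside. The notes name mm9, but peaks on chromosome Y reach 90.8 Mb and the summits gather at start sites of GRCm38.p6, so genes, promoters and microRNAs were taken from RefSeq tables of that build. Gene entries have no exons. Chromosome 18 has no start sites in the table used.

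Each shared peak took its values of repeat 2 from the peak with the largest overlap. A gene was at a cluster if it lay within 10 kb of the span. Intervals are exact (Clopper-Pearson, 95%) and cover counting error only. No group test was made, since both repeats enter the rule. The members and lists were chosen with earlier results of these data known. Named genes follow a rule: the 12 clusters with the most peaks, the 10 strongest members, list genes at clusters (up to 4 a list), the clusters with the extreme spans and medians, and groups of 8 and 7. The cluster with the highest median is not reported here. Others were chosen after their values were seen. These were Klf4, Pim1, Prdm14 (beside its peak), Qk, Tcf7l1, Tcf7l2, Grhl3, T, the Hoxa genes, the microRNA genes and the promoters. Promoter sequences of opposite strands matched as reverse complements in 1685 of 1685 overlapping windows. Joining was tested on simulated data. Python 3.11.15, pandas 2.3.3 and SciPy 1.17.1 were used.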

Additional observations from a re-analysis of the deposited data

How the results depend on the processing

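The clusters depend on the limits that define them. Against 258 clusters, 2552 members and 523 genes, joining at 5 kb gave 33, 298 and 46, joining at 20 kb gave 864, 10208 and 2454, groups of 6 or more gave 655, 5087 and 1155, and groups of 10 or more gave 107, 1283 and 231. With summits within 100 bp there were 146, 1364 and 281, with at least 10-fold enrichment in both 25, 223 and 49, and with a score of at least 100 in both 63, 578 and 129. A window of 50 kb gave 993 genes. Naive genes at clusters were 4, and 1, 11, 9, 2, 0 and 2 with joining at 5 and 20 kb, groups of 6 and 10, fold and score limits, and 7 with the 50 kb window. Leaving out the match to either repeat gave 422 to 529 clusters, 4230 to 5636 members, 807 to 1111 genes and 5 to 7 naive genes. The 12 largest clusters, 208 peaks in all, had 79 in the largest group within each with joining at 5 kb, 84 with the fold limit and 113 with the score limit. Without replicate 1, Rnf220 went from 20 to 11 peaks and Zmynd8 from 18 to 28, and the other 10 stayed within 1.5 times. The median fold enrichment of members over that of the others was 1.088 in repeat 1. It was 1.099, 1.077, 1.097, 1.117 and 1.067 with joining at 5 kb, groups of 6 and 10, summits within 100 bp and the score limit, 1.099 to 1.121 with 1 repeat, and 1.281 for tags, above 1 in each. Under all 10 alternatives of joining, size, sharing and threshold, 6 clusters were overlapped by a dense cluster. They lay at Irf2bpl, Sparc, Tnrc18, Krt42, Myo10 (the one of 13 peaks, not the shortest one) and Sp2. Joining at 20 kb, groups of 6 or more and repeat 1 alone only loosen the rule. They overlap all 258 clusters by construction, so only the other alternatives could have lost a cluster. In promoters of 300 bases, an alternative chosen after seeing the data, the direct pair stood in 6.20% of windows with a member (17 of 274). The share over all windows of that length was not computed. The value therefore cannot be set beside the shares of the shorter windows. No paired analysis was possible because no result comes from a test between groups, and the inputs have no peak list of their own. Depth limits weak members: peaks hold as few as 17 and 18 tags.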
